A study of Homo sapiens with 18 samples.

Results

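Open chromatin was examined at the loci of 5 genes that encode drug efflux pumps of the ATP-binding cassette (ABC) family: ABCB1, ABCG2, ABCC1, ABCC2 and ABCC3. The members were the called ATAC-seq regions within 50 kb of each gene body, with the bodies placed to the nearest kb in the hg19 build. They numbered 47 of the 79483 regions called anywhere on chromosomes 1 to 22 and X, in 1172 kb of sequence. ATAC-seq uses a transposase to insert adapters into accessible DNA, so that a peak marks open chromatin. The 18 libraries, in 6 groups of 3, were all made from PC9, an established line of human lung adenocarcinoma with an activating EGFR mutation. DTP (drug-tolerant persister) libraries were made from the cells that survived 8 days in 1 µM erlotinib, an inhibitor of the EGFR kinase, and their reference was unsorted PC9 given the vehicle DMSO. ALDH_High_Erl and ALDH_High_DMSO were cells exposed for 12 h to 1 µM erlotinib or to DMSO and then sorted as high for Aldefluor, a fluorescent reporter of aldehyde dehydrogenase (ALDH) activity. ALDH_Low_Erl and ALDH_Low_DMSO were the low fraction after the same exposures. Because sorting followed treatment, a difference between treatments within a fraction can lie in which cells entered the gate or in the chromatin of the cells, and these cannot be told apart. Whether libraries a, b and c of a group were separate cultures is not in the labels, and the p-values therefore rest on variation among libraries that could be purely technical.

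ABC exporters use ATP to move substrates out of the cell. ABCB1 (P-glycoprotein) and ABCG2 (breast cancer resistance protein) carry a broad range of lipophilic drugs, and both are known to transport erlotinib. ABCC1, ABCC2 and ABCC3 are multidrug resistance-associated proteins that export organic anions and glutathione, glucuronide or sulfate conjugates. ABCC2 is best known from the bile-facing membrane of hepatocytes, and ABCC1 and ABCC3 sit mainly on basolateral membranes of epithelia.

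The promoters of 3 genes are shown because the results turn on which transcription starts were called open. They are RefSeq sequence of build GRCh38.p14, the 250 bases before a start, read 5′ to 3′ along the gene, with matched motifs in capitals. The upstream ABCB1 start (chr7:87713296-87713545, minus strand) and the downstream ABCB1 start (chr7:87600885-87601134, minus strand) lie at the 5′ end of the gene body and inside it. The ABCG2 start shown (chr4:88158860-88159109, minus strand) is one of a cluster inside the gene body, and ABCC2 has a single start in the table (chr10:99782390-99782639, plus strand).
ABCB1 upstream start: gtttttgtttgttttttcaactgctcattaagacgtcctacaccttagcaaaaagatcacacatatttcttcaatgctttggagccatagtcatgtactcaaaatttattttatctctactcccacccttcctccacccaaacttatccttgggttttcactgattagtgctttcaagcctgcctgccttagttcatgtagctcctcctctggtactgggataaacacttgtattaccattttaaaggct
ABCB1 downstream start: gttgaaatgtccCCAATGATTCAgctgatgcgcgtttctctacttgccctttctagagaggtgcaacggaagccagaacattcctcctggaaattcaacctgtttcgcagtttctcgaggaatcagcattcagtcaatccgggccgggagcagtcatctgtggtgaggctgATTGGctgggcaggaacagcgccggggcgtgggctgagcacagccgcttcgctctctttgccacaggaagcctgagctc
ABCG2 clustered start: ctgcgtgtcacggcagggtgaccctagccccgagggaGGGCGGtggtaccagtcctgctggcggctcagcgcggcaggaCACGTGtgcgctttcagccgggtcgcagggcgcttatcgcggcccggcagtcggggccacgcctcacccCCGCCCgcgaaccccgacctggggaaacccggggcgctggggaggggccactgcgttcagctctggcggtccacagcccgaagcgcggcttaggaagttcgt
ABCC2 start: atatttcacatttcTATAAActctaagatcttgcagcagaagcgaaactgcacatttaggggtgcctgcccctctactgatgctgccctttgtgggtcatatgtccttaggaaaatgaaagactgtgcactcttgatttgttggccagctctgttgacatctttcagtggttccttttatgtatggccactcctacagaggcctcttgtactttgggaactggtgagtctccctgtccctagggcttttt
Both strands were searched for CCAAT (bound by NF-Y), for GGGCGG (SP1) and for CACGTG (the E-box of MYC and USF proteins). They were also searched for TGANTCA (a looser form of the AP-1 site), for TGACNNNGC (the antioxidant response element) and for TATAAA (the TATA box). The downstream ABCB1 promoter held 2 CCAAT matches and 1 TGANTCA match, which shares a base with the first CCAAT, and the ABCG2 promoter shown held 2 GGGCGG matches and 1 CACGTG match. Of the 5 ABCG2 starts in the table, 1 other, whose window overlaps this sequence, held the same matches and 3 held none of the 6 motifs, with GC content from 40.0% to 73.6%. The ABCC2 promoter held 1 TATAAA match, near the end of the sequence farthest from the start. Among 35116 promoters of the same length, CCAAT was present in 32.0%, GGGCGG in 42.6%, CACGTG in 6.34%, TGANTCA in 6.57%, TGACNNNGC in 10.9% and TATAAA in 10.7%, so the matches are a description only. GC content was 39.2% and 55.6% in the upstream and downstream ABCB1 promoters, 72.4% at the ABCG2 start shown and 45.6% at ABCC2, beside a median of 58.0% over all promoters. CpG dinucleotides numbered 1, 12, 29 and 1 in the same order, beside a median of 11. ABCC1 and ABCC3 were placed by their 5′ ends alone.

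The deposited lists held between 26228 and 45244 peaks per library. Group means of members held followed mean list lengths, with PC9 and ALDH_High_Erl equal, but single libraries did not always. ALDH_Low_DMSO b, with 26228 peaks, held 18 members, and ALDH_Low_DMSO a, with 26444 peaks, held 13. DTP libraries held 26.7 ± 0.577 of the 47 members and PC9 libraries 25.0 ± 1.0 (mean ± SD, n = 3 libraries in each group here and below). Members held numbered 25.0 ± 2.0 in ALDH_High_Erl, 18.3 ± 1.53 in ALDH_High_DMSO, 23.3 ± 3.51 in ALDH_Low_Erl and 16 ± 2.65 in ALDH_Low_DMSO. Mean list lengths were 44110 peaks in DTP, 40447 in PC9, 38548 in ALDH_High_Erl, 31214 in ALDH_High_DMSO, 36575 in ALDH_Low_Erl and 26348 in ALDH_Low_DMSO. The part of list length in differences between groups was not tested directly, so gained and lost members, ranks and called bases are also given for lists cut to the 26225 highest-scoring peaks of each library, called equal-length lists below. Read depth is unknown, and a peak that is absent from a list was not called there, which does not show closed chromatin.

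The loci differed in how densely they were called. ABCC3 had 12 regions in its window (7.64 per 100 kb), ABCC1 16 (5.44 per 100 kb), ABCC2 7 (4.12 per 100 kb), ABCG2 6 (2.49 per 100 kb) and ABCB1 6 (1.94 per 100 kb). Of the 47 regions, 32 lay in gene bodies, 9 upstream and 6 downstream. All 18 libraries held 8 members (17%), against 17.7% of all regions, and 9 members (19.1%) were held by a single library, against 21.2% of all regions. These 8 constant regions were spread over ABCC1 (3), ABCC3 (3), ABCG2 (1) and ABCC2 (1), and none was at ABCB1. The map of peaks by library shows the same sites recurring across groups at ABCG2, ABCC1 and ABCC3, while at ABCB1 a single region was held by more than 8 libraries.

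**Figure D1:**
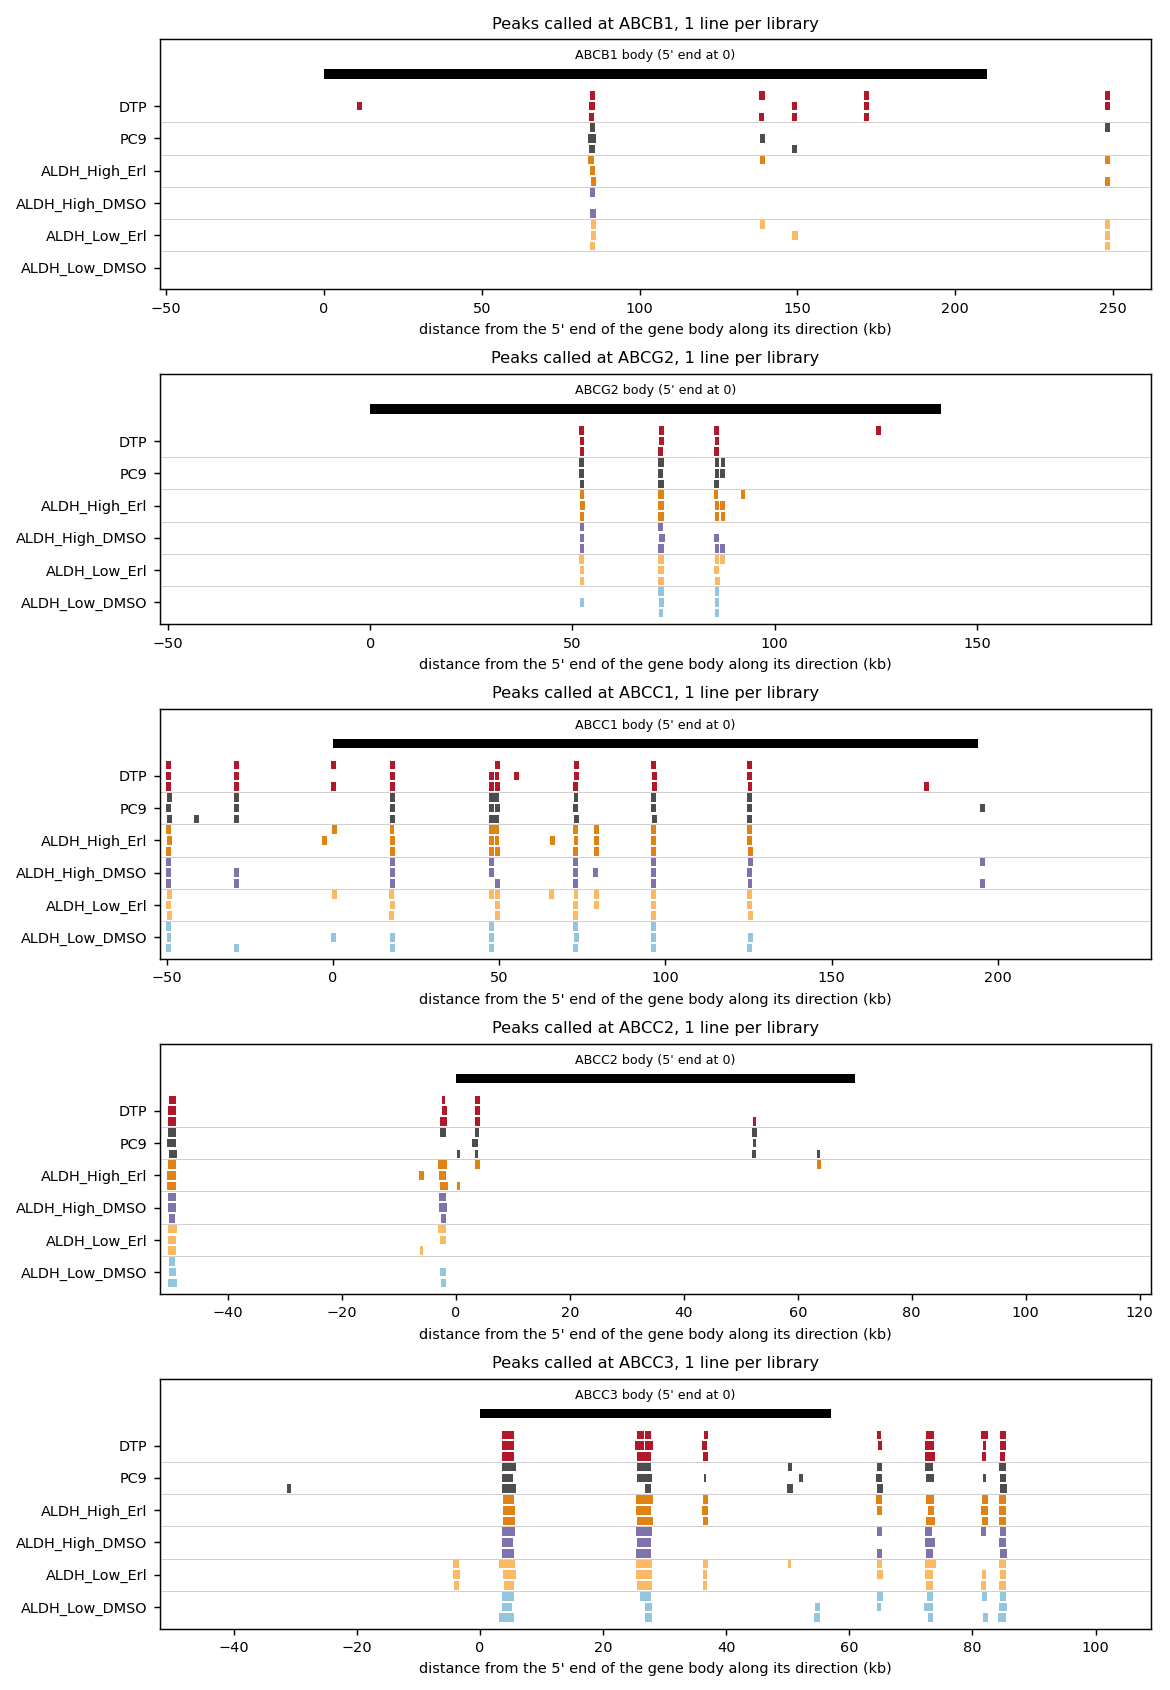
Peaks called in each of 18 libraries (1 line each, a to c from top to bottom within a group) at the 5 loci. The x axis is the distance in kb from the 5′ end of the gene body along the gene, the black bar is the gene body, and peaks narrower than a set width are widened to be visible. ABCB1 had 6 regions and no peak in ALDH_Low_DMSO, while ABCC3 had 12 regions.

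Of the 3 genes with starts in the promoter table, only ABCG2 had a called region at starts of its own in all 18 libraries. ABCC1 and ABCC3 have no start there, so only their 5′ ends could be checked. Positions relative to starts were compared as distances from the gene's 5′ end, taken within hg19 for regions and within GRCh38 for starts, since no hg19 annotation was used here. The body lengths of the 2 builds differed by less than 1 kb at each locus (for example, 210 kb and 210.3 kb at ABCB1). The ABCG2 region (chr4:89079218-89080961) ran from 71.04 to 72.78 kb inside the gene body, and the clustered ABCG2 starts lay at 72.34, 72.72, 72.77 and 72.99 kb. LOC124900867, a gene given as protein-coding that the table also lists there, starts at 72.07 kb. The most upstream ABCG2 start, at 0 kb, had no region near it, the nearest lying at 51.76 kb. Scores at the clustered starts were 197, 194 and 233 in DTP and 176, 180 and 199 in PC9. They were 225, 238 and 258 in ALDH_High_Erl and 262, 179 and 225 in ALDH_High_DMSO. In ALDH_Low_Erl they were 270, 274 and 269, and in ALDH_Low_DMSO 175, 186 and 93.7. In equal-length lists the score percentile of this region (100 is the highest score in the list) averaged 56.8 ± 7.1 in DTP and 48.7 ± 3.22 in PC9, and the groups overlapped. It was 41.9, 61.0 and 51.0 in ALDH_High_Erl and 70.7, 54.5 and 66.8 in ALDH_High_DMSO, with overlap. It was between 50 and 66.8 in ALDH_Low_Erl and between 21.9 and 66.0 in ALDH_Low_DMSO, also with overlap. The ABCG2 start cluster was thus called in every group, and its score rank overlapped between DTP and PC9 and between treatments within each fraction.

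At ABCB1 no region came within 1 kb of either start in any library. The starts lie at 0 and 112.41 kb, and the nearest region to the 5′ end, at 10.94 kb, was called in a single library. The region called most often, chr7:87256788-87259024, was at 83.98 to 86.21 kb and coincided in distance with the start of RUNDC3B, a neighbouring gene whose start lies at 84.9 kb within the ABCB1 body. It was held by 3 DTP, 3 PC9, 3 ALDH_High_Erl, 2 ALDH_High_DMSO and 3 ALDH_Low_Erl libraries and by 0 ALDH_Low_DMSO libraries. At ABCC1 the region at the 5′ end (chr16:16042719-16044102, -0.28 to 1.1 kb, where LOC107984869 also starts at 0.03 kb) was held by 5 of 18 libraries. Those were 2 DTP, 1 ALDH_High_Erl, 1 ALDH_Low_Erl and 1 ALDH_Low_DMSO library, with a score of 119 in the ALDH_Low_Erl library and between 70.6 and 83.1 in the other 4, where the lowest score in the lists is 70. At ABCC2 the region 0.13 to 0.63 kb from the start (chr10:101542129-101542631) was called in 1 PC9 library (score 72.3) and 1 ALDH_High_Erl library (score 97.8). At ABCC3 no region lay within 1 kb of the 5′ end, but the region at 3.08 to 5.91 kb (chr17:48715085-48717906) was held by all 18 libraries. It had the highest mean within-list percentile of the 47 members, 90.6, where held.

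Several other members called in nearly all libraries lay at starts of neighbouring genes. In distance, the ABCC2 region at -50.68 to -48.96 kb coincided with the start of CUTC. The ABCC3 regions at 72.2 to 74.02 kb and at 84.2 to 85.62 kb coincided with the starts of ANKRD40 and LUC7L3. CUTC and LUC7L3 were called in 18 of 18 libraries and ANKRD40 in 17 of 18. The remaining members held by all 18 were at -49.99, 72.41 and 95.84 kb of ABCC1 (left edges) and at 3.08 and 25.15 kb of ABCC3, with no start in the table within 1 kb. The table holds no start of ABCC1 or ABCC3 itself, so starts inside these bodies could not be checked.

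**Figure D2:**
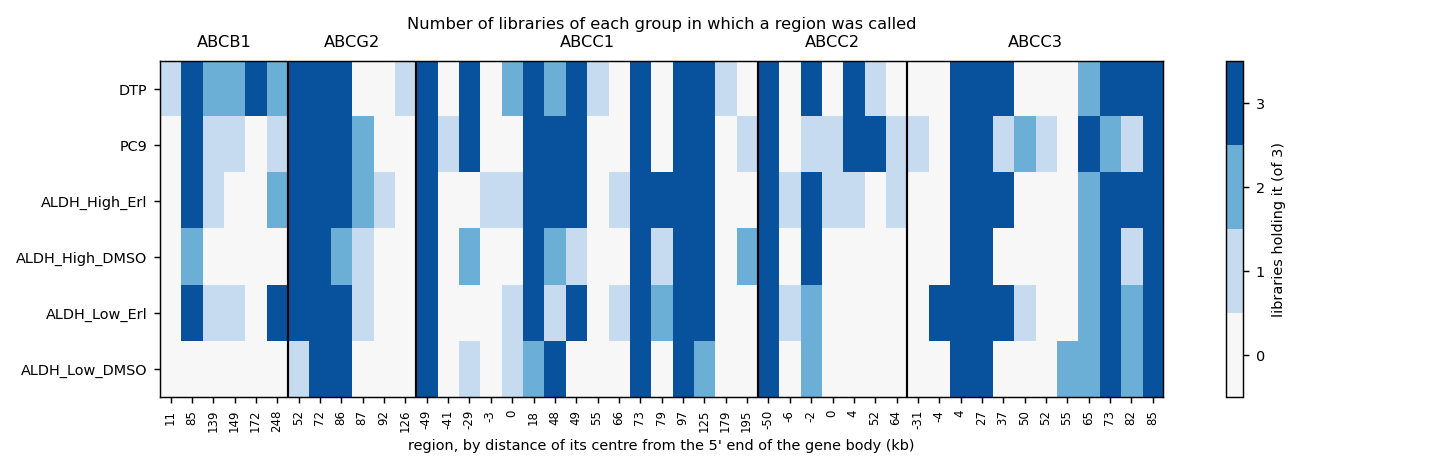
Number of libraries (0 to 3, colour) of each group (rows) that held each of the 47 regions (columns, by the distance of the centre from the gene's 5′ end in kb). Constant regions form full dark columns, and the column at 37 kb of ABCC3 is dark in DTP and both erlotinib-treated sorted groups and empty in both DMSO-treated sorted groups.

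The first comparison asked how persisters differ from the parental population. In DTP against PC9, 1 of the 40 members held by either group was gained, meaning held by 3 of 3 DTP libraries and 0 of 3 PC9 libraries. Over all regions 6.75% were gained in this comparison. None of the 40 was lost, against 3.68% of all regions. The gained member was in the ABCB1 body (chr7:87170862-87171615, 171.38 to 172.14 kb), with scores of 111, 139 and 83.2 in DTP, and no library of any other group held it. Their percentiles within the full lists were 36.1, 51.2 and 13.3, and only DTP library b kept the peak in equal-length lists. In those lists 0 of 24 members were gained and 1 was lost, a region 51.91 to 52.79 kb into ABCC2 (chr10:101593911-101594793), beside 5.47% and 5.03% of all regions. That ABCC2 region had a score of 76.8 in 1 DTP library and scores of 118, 125 and 145 in PC9, and was called in none of the 12 sorted libraries.

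The largest difference in score rank among the members was inside ABCC1. The region chr16:16167597-16169180, 124.6 to 126.18 kb into the gene body, had scores of 399, 481 and 431 in DTP against 137, 153 and 178 in PC9. In equal-length lists its percentile was 95.1, 97.2 and 95.0 in DTP and 21.8, 34.7 and 42.3 in PC9. All DTP libraries therefore stood far above all PC9 libraries. The mean difference was 62.8 percentile points, the 27th highest of 15104 regions held by all 6 libraries (0.179%). Non-overlap itself was common, at 17.6% of those regions in the higher and 17.3% in the lower direction. The same region ranked high after 12 h of erlotinib. Its scores were 560, 605 and 508 in ALDH_High_Erl and 148, 174 and 200 in ALDH_High_DMSO, and its percentiles were 89.4, 96.3 and 86.7 against 35.0, 53.0 and 60.3. That difference of 41.4 points was the 188th highest of 15277 (1.23%), where 12% of regions were higher and 11.9% lower without overlap. In ALDH_Low_Erl its scores were 577, 570 and 296, at percentiles of 88.2, 91.6 and 71.6. In ALDH_Low_DMSO library a did not hold it, and libraries b and c had scores of 89.8 and 129, at percentiles of 19.8 and 43.7. The 9 libraries from erlotinib-exposed cells thus all ranked this region above each of the 8 libraries from DMSO-treated cells that held it. Ranks were not tested, so these differences carry no p-value.

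Other members had smaller shifts in rank. The ABCC3 region at 3.08 to 5.91 kb had percentiles of 82.7, 79.5 and 79.4 in DTP and 92.9, 98.3 and 91.0 in PC9, a difference of -13.5 points without overlap, and 19.6% of regions had a difference as low. Of 9 members held by all 6 libraries of this comparison, 1 was higher and 1 lower without overlap, beside 17.6% and 17.3% of all regions. In ALDH_Low_Erl this ABCC3 region had 65.2, 83.8 and 72.8, against 93.7, 87.8 and 85.2 in ALDH_Low_DMSO, a difference of -15.0 points, again without overlap. In ALDH_High_Erl (91.3, 88.2 and 90.7) and ALDH_High_DMSO (89.1, 98.3 and 96.8) the libraries overlapped. The neighbouring ABCC3 region at 25.15 to 28.08 kb (chr17:48737155-48740078) went the other way, with 77.3, 77.0 and 80.7 in ALDH_Low_Erl and 55.3, 40.3 and 54.6 in ALDH_Low_DMSO. This was a difference of 28.3 points, the 744th highest of 14605 regions. The same region had 90.2, 84.7 and 89.4 in ALDH_High_Erl against 73.5, 55.7 and 69.0 in ALDH_High_DMSO, a difference of 22 points. Its percentiles in DTP (53.9, 29.0 and 81.8) and PC9 (78.0, 70.8 and 56.4) overlapped. Each percentile is that of the highest-scoring peak in the region, and the bounds of these peaks differed between libraries. The peak ran from 25.407 to 27.941 kb in ALDH_Low_Erl a and from 26.781 to 27.891 kb in ALDH_Low_DMSO b. DTP a, DTP b and ALDH_High_DMSO b had split peaks. The part of peak bounds in the differences of rank was not tested. In ABCC1 the region at 72.41 to 73.74 kb (chr16:16115407-16116741) was higher without overlap with erlotinib in both fractions, by 15.7 points in ALDH_Low and 13.6 points in ALDH_High. The region at -49.99 to -48.35 kb of ABCC1 (chr16:15993008-15994654) was higher in ALDH_High_Erl than in ALDH_High_DMSO by 15.1 points, and the region at the CUTC start was lower by 19.3 points. In ALDH_Low 2 of 9 members were higher and 1 lower without overlap, beside 13.6% and 13% of all regions, and in ALDH_High 4 of 12 were higher and 1 lower, beside 12% and 11.9%.

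**Figure D3:**
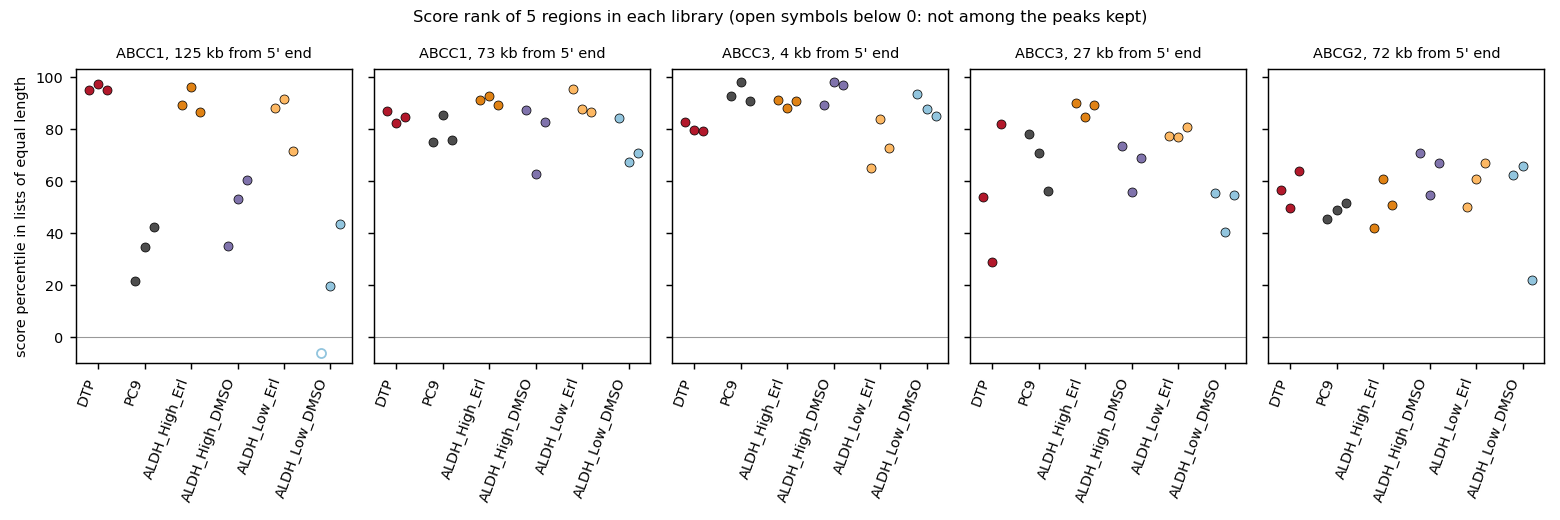
Score percentile (0 to 100) of 5 regions in equal-length lists, by group, with 1 point per library. At 125 kb of ABCC1 the DTP libraries sit at 95.0 to 97.2 and the PC9 libraries at 21.8 to 42.3, while the ABCG2 region at 72 kb overlaps between DTP and PC9 and between treatments within each fraction; an open symbol marks the library that did not hold the region.

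The second set of comparisons asked what 12 h of erlotinib changed within each ALDH fraction. In ALDH_Low, 5 of 32 members were gained and 0 lost, beside 6.82% of all regions gained and 0.887% lost. Of the 5, 2 were in the ABCB1 window, at 247.78 to 248.72 kb (chr7:87094285-87095221, inside the neighbouring phospholipid transporter gene ABCB4 by distance) and at the RUNDC3B start. The others were at 48.9 to 50.06 kb of ABCC1 (chr16:16091899-16093057) and at -4.36 to -3.28 kb (chr17:48707645-48708725) and 36.09 to 37.1 kb (chr17:48748092-48749103) of ABCC3. Their scores in ALDH_Low_Erl were modest, between 71.3 and 203. The ABCC3 region at -4.36 kb, whose edge is within 1 kb of the start of the noncoding gene LOC101927253, had scores of 104, 136 and 99.2 in ALDH_Low_Erl and was held by none of the other 15 libraries. In ALDH_High, 1 of 34 members was gained and 0 lost, beside 4.52% of all regions gained and 0.998% lost. That member was the ABCC3 region at 36.09 to 37.1 kb, so it was gained in both fractions. Its scores were 77.6, 78.2 and 130 in ALDH_High_Erl and 118, 116 and 73.7 in ALDH_Low_Erl, and neither DMSO group held it in any library. DTP libraries held it with scores of 91.8, 91.7 and 91.1, and PC9 library b alone of its group held it, with a score of 70.1.

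In equal-length lists fewer members passed. In ALDH_Low 1 of 26 members was gained, the ABCB1 region at 247.78 kb with percentiles of 31.6, 7.18 and 6.99 in ALDH_Low_Erl, and 1 was lost, the ABCC1 region at 47.08 to 48.28 kb (chr16:16090081-16091284). Over all regions 3.39% were gained and 2.76% lost. In ALDH_High 0 of 25 members were gained or lost, against 3.01% and 2.42% of all regions. The ABCC3 region at 36.09 kb was kept in 1 library of each erlotinib-treated sorted group.

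Each region was also tested over the 12 sorted libraries, by an exact two-sided permutation of treatment within fractions whose smallest p is 0.005. Of 8 members that could be tested, 3 were called more often with erlotinib with exact permutation p-values below 0.05 before adjustment, and 0 less often, beside 21% and 2.72% of the 13213 regions tested. Those 3 were the only ones of the 8 whose margins allow a p below 0.05, and each was at its smallest possible p. For the rest of the 8 the smallest possible p was 0.05 or 0.08. The ABCC3 region at 36.09 kb was held by 6 of 6 erlotinib and 0 of 6 DMSO libraries (exact permutation p = 0.005). The ABCB1 region at 247.78 kb and the ABCC1 region at 48.9 kb each had a share of libraries higher by 83.3 percentage points (exact permutation p = 0.02). The count of 3 became 0 with equal-length lists and 1 with a score of at least 100. After Benjamini-Hochberg adjustment over all 13213 regions these exact permutation p-values became 0.0599 at ABCC3 and 0.0843 at each of the other 2, so no member passed 0.05. No region of the genome passed either, in a set that included regions unable to reach 0.05. With the test kept to the 9423 regions that could reach 0.05, a choice made after seeing the data, the ABCC3 region had an adjusted exact permutation p of 0.0427. At that threshold 10.6% of the regions were higher with erlotinib and 1.09% lower.

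Called bases per window, the gene body with 50 kb on either side, were compared by locus. At ABCB1 they were 1820, 1816 and 1642 bp in ALDH_High_Erl against 1255, 0 and 2048 bp in ALDH_High_DMSO. They were 2230, 2130 and 1878 bp in ALDH_Low_Erl and 0 bp in each ALDH_Low_DMSO library. ALDH_Low libraries were fully separated by treatment, and ALDH_High libraries overlapped. How many genome windows are separated in this way within a fraction was not analysed here. Over the 12 sorted libraries the treatment difference was 1370 bp (exact permutation p = 0.02, two-sided). The treatment difference was 1270 bp at ABCG2 (exact permutation p = 0.01), 2250 bp at ABCC1 (p = 0.015), 849 bp at ABCC2 (p = 0.025) and 2210 bp at ABCC3 (p = 0.005). The locus windows ran from 157 kb (ABCC3) to 310 kb (ABCB1), so genome windows of a fixed 250 kb are a rough background. Those genome windows were higher at exact permutation p under 0.05 in 39.9% of 10446 cases and lower in 0.9%. Called bases at the 5 loci thus went in the direction common to the genome. Adjusted over those windows, the exact permutation p was 0.0412 at ABCG2 and 0.0282 at ABCC3, and 0.0623, 0.0529 and 0.0728 at ABCB1, ABCC1 and ABCC2. In equal-length lists the difference was 972 bp at ABCG2 (exact permutation p = 0.015, adjusted 0.0921), beside 20.6% of windows higher and 5.34% lower, and the other 4 loci had exact permutation p between 0.05 and 0.695. There were 20 such tests for each set of lists. Leaving out single libraries gave differences between 638 bp (without ALDH_Low_DMSO a) and 973 bp at ABCC2, with exact permutation p up to 0.08.

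ABCG2 was the only locus with an unadjusted exact permutation p below 0.05 for treatment in both sets of lists. In equal-length lists 20.6% of genome windows were higher at that level, so its values are given as a description only. Its called bases were 4289, 3573 and 4338 bp in ALDH_High_Erl against 2017, 3205 and 3620 bp in ALDH_High_DMSO. They were 4303, 3591 and 3308 bp in ALDH_Low_Erl against 2350, 2770 and 1827 bp in ALDH_Low_DMSO. The ALDH_Low groups did not overlap and the ALDH_High groups did, with no genome share of such separation analysed here. The region at 51.76 to 52.89 kb (chr4:89099111-89100239) was held by 3 ALDH_Low_Erl libraries and 1 ALDH_Low_DMSO library, and by 3 libraries in each other group. The region at 85.06 to 86.33 kb (chr4:89065671-89066939) was held by 17 of 18 libraries.

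**Figure D4:**
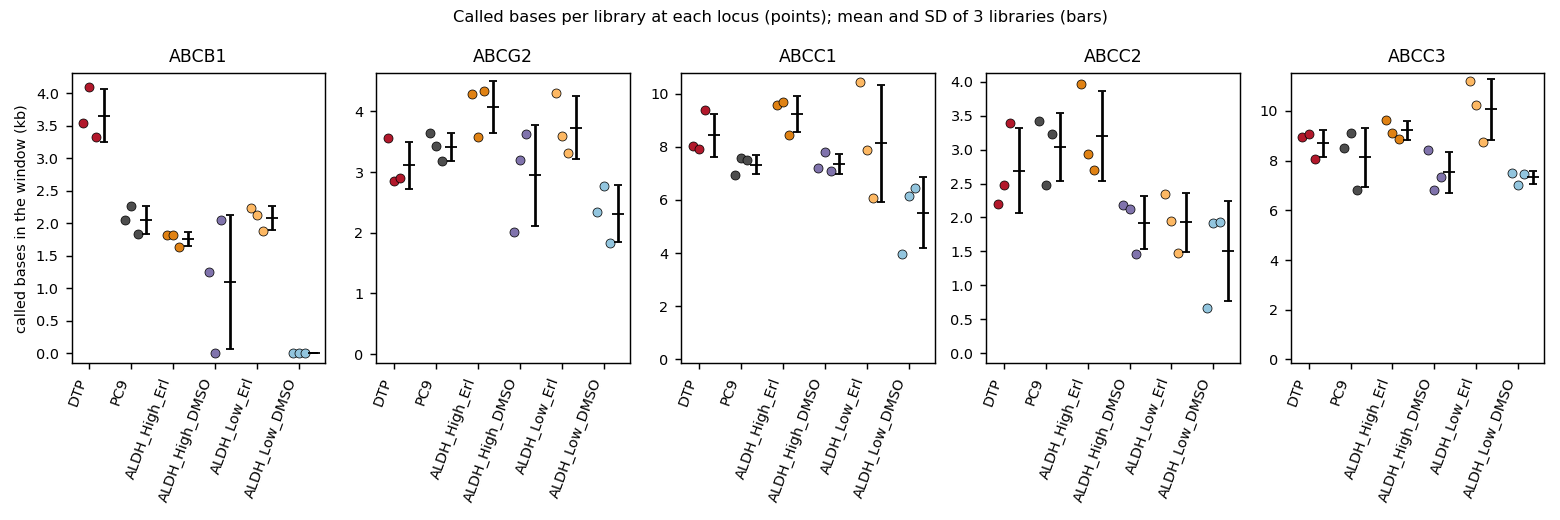
Called bases (kb) in each window (gene body with 50 kb on either side) by group, with 1 point per library and a bar for the mean and SD of 3 libraries. At ABCB1 the ALDH_Low_DMSO libraries are at 0 and the DTP libraries at 3322 to 4103 bp, above all other libraries.

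In DTP against PC9, called bases differed by locus in sign. At ABCB1 they were 3549, 4103 and 3322 bp in DTP and 2048, 2261 and 1835 bp in PC9, a difference of 1610 bp without overlap (exact permutation p = 0.1, the smallest that 3 against 3 libraries allow). The difference was 1110 bp at ABCC1 (exact permutation p = 0.1) and 555 bp at ABCC3 (p = 0.7). At ABCG2 it was -308 bp (exact permutation p = 0.3) and at ABCC2 -353 bp (p = 0.5). In equal-length lists the difference was 59.3 bp at ABCC1 (exact permutation p = 1.0) and -496 bp at ABCC3 (p = 0.7), the reverse sign. In those lists it was -641 bp at ABCG2 and -908 bp at ABCC2, both without overlap (exact permutation p = 0.1 each). Without PC9 library c the ABCC3 difference in the deposited lists was -106 bp. Over the genome 28.7% of windows were higher and 8.23% lower without overlap. In equal-length lists ABCB1 had 1853 ± 537 bp in DTP and 956 ± 828 bp in PC9, still without overlap, where 20.8% of windows were higher and 11% lower in that way. The 6 ABCB1 regions were all held by at least 1 DTP library, and 4 of them by at least 1 PC9 library.

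The last comparisons set ALDH_High against ALDH_Low at the same treatment. Under erlotinib, 0 of 35 members were gained and 1 was lost, beside 0.893% and 0.446% of all regions, the lost member being the ABCC3 region at -4.36 kb called in ALDH_Low_Erl alone. Under DMSO, 0 of 25 were gained and 0 lost, beside 1.28% and 0.14%. In equal-length lists under erlotinib 0 of 27 members were gained and 1 was lost, the ABCB1 region at 247.78 kb, beside 0.845% and 0.663% of all regions. Under DMSO 0 of 22 were gained or lost in those lists, beside 0.517% and 0.426%. Of 3 members testable for fraction over the 12 sorted libraries, 0 fell below 0.05 by the exact permutation test before adjustment. None of them could, because the smallest p their margins allow was 0.05, 0.05 and 0.08, so this count decides nothing. Over the 6377 regions tested, 1.57% were higher and 0.125% lower. Called bases differed between fractions at ABCC2 by 847 bp (exact permutation p = 0.035, unadjusted), and the other 4 loci had exact permutation p of 0.085 or more. The share of genome windows that differ between fractions was not analysed here, so whether ABCC2 stands out is not known. At ABCC2 the called bases were 3962, 2936 and 2704 bp in ALDH_High_Erl against 2350, 1952 and 1477 bp in ALDH_Low_Erl, without overlap. They were 2184, 2122 and 1468 bp in ALDH_High_DMSO against 660, 1918 and 1936 bp in ALDH_Low_DMSO, with overlap. In equal-length lists the ABCC2 difference between fractions was 698 bp (exact permutation p = 0.09). The ABCC3 region at 25.15 to 28.08 kb ranked higher in ALDH_High than in ALDH_Low without overlap under both treatments, by 9.74 points under erlotinib and 16 points under DMSO. Under erlotinib 17.1% and under DMSO 8.16% of regions had a difference at least as high. As given above, the peaks of this ABCC3 region had unlike bounds in different libraries. Counting all members held by all 6 libraries, 2 of 11 were higher and 1 lower without overlap under erlotinib, beside 8.31% and 8.37% of all regions. Under DMSO 1 of 9 was higher and 2 were lower, beside 5.69% and 5.75%.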

How the data were processed

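Peak lists of 18 ATAC-seq libraries were used, 1 for each. BWA, MACS 1.4.2 and hg19 are named per the submitters' processing notes. The sources used here do not give read trimming, transposase shifting or calling settings. The deposited score of a peak comes from the authors' processing, is of unstated scale and is at least 70; it served only to rank or filter peaks. Groups came from the sample labels.

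Across libraries, peaks sharing at least 1 bp on chromosomes 1 to 22 and X were merged. A library held a region if a peak of it fell there, and gained or lost means 3 of 3 libraries against 0 of 3. Share of libraries holding a region and called bases per window were compared by exact permutation tests (400 assignments over the 12 sorted libraries), with Benjamini-Hochberg adjustment over all testable regions or all 250 kb windows. For called bases, only the treatment difference was adjusted. A region was testable where the smallest p its margins allow was under 0.1. The procedure was tested on simulated data. Python 3.11.15, numpy 2.4.6, pandas 2.3.3, scipy 1.17.1 and matplotlib 3.10.9 were used. Promoters matched 3 of the 5 genes (8 starts). Exon and intron annotation of hg19 was not used here.

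Named regions were those within 1 kb of a gene's 5′ end, held by all 18 libraries, gained or lost in a comparison of the deposited lists, or among the 3 highest by mean within-list percentile at a locus (23 of 47). The ABCC1 region at 47.08 kb, lost in equal-length lists, and those of the last part of the text were named after their values were seen. The members and lists were chosen with earlier results of these data known. Alternatives were a score of at least 100, peaks covering at least 50% of a region, equal-length lists, gene bodies alone, windows of 100 kb, leaving out each library, and a replicate block.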

Additional observations from a re-analysis of the deposited data

Results flagged for a closer look

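Called bases at ABCB1 had a smaller mean treatment difference in ALDH_High than in ALDH_Low. The difference of differences was -1420 bp (exact permutation p = 0.02, two-sided, unadjusted, the smallest of 5 loci tested). The permutation exchanged fraction labels within each treatment. A plain difference between fractions can therefore give a small p, and whether the treatment difference depends on fraction was not tested by itself. All ALDH_Low_DMSO libraries were at 0 bp, the lowest value possible. The share of genome windows with such a difference was not analysed here. Called bases averaged 1759 ± 102 bp in ALDH_High_Erl and 1101 ± 1030 bp in ALDH_High_DMSO, and 2079 ± 181 bp in ALDH_Low_Erl and 0 bp in each ALDH_Low_DMSO library (SD, n = 3 libraries each). In equal-length lists the difference of differences was -1220 bp with an exact permutation p of 0.19. The ALDH_Low_DMSO lists were the shortest, at 26348 ± 110 peaks against 31214 ± 1400 in ALDH_High_DMSO, and the part of list length in the result was not tested further. At the other 4 loci the exact permutation p of this difference was 0.275 or more.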

How the results depend on the processing

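Counts of gained and lost members were small and moved with the settings. In DTP against PC9 the 1 gained member became 0 with a score of at least 100 or equal-length lists, 2 with 50% cover and 5 with windows of 100 kb, and the 0 lost became 1 with a score of at least 100 or equal-length lists. In ALDH_Low the 5 gained became 2 with a score of at least 100, 1 with equal-length lists and 3 in gene bodies alone, and the 0 lost became 1 with the score filter or equal-length lists. In ALDH_High the 1 gained became 0 with the score filter or equal-length lists and 2 with windows of 100 kb. The 1 member lost in ALDH_High against ALDH_Low under erlotinib became 0 with the score filter or in gene bodies alone. With single libraries left out, gained and lost counts ran from 1 to 3 and 0 to 1 in DTP (3 without PC9 b, 2 without DTP b or PC9 a, 1 lost without DTP c, PC9 b or PC9 c). They ran from 5 to 6 and 0 to 1 in ALDH_Low (1 lost without ALDH_Low_Erl a or ALDH_Low_DMSO a), and from 1 to 2 and 0 to 1 in ALDH_High (2 gained without ALDH_High_Erl b or any ALDH_High_DMSO library, 1 lost without ALDH_High_DMSO a or b). For ALDH_High against ALDH_Low they ran from 0 to 2 and 0 to 1 under DMSO (2 gained without ALDH_High_DMSO b, 1 without ALDH_Low_DMSO b, 1 lost without ALDH_Low_DMSO a), and from 0 to 1 and 1 to 1 under erlotinib (1 gained without ALDH_Low_Erl a). The cause was not tested.

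The erlotinib difference in called bases kept its sign at each locus under every alternative run. At ABCB1 it no longer passed with the score filter (667 bp, exact permutation p = 0.11), equal-length lists (286 bp, p = 0.54) or the gene body alone (782 bp, p = 0.075). At ABCC1 it was 1330 bp with equal-length lists (exact permutation p = 0.05), and at ABCC3 882 bp (p = 0.135). At ABCC2 it was 273 bp with the score filter (exact permutation p = 0.39), 124 bp with equal-length lists (p = 0.695) and 308 bp in the gene body (p = 0.4). The replicate block, which exchanges libraries of the same letter (smallest exact permutation p 0.0312), gave 1370 bp at ABCB1 and 2250 bp at ABCC1 (p = 0.0625 each) and 849 bp at ABCC2 (p = 0.0938), while ABCG2 and ABCC3 passed, and left 1 of the 3 single regions below 0.05 before adjustment. Same-letter libraries did not deviate together (correlations between -0.01 and 0.012 over 15 pairs), and those of different letters had correlations between -0.019 and 0.023. This check cannot tell whether a letter stands for a shared culture or day, which is not in the labels. With single libraries left out the differences ran from 1090 to 1610 bp at ABCB1, 1040 to 1440 bp at ABCG2, 1670 to 2770 bp at ABCC1, 638 to 973 bp at ABCC2 and 1930 to 2540 bp at ABCC3. The ABCC2 call was lost without ALDH_High_Erl a (658 bp), ALDH_High_DMSO a (914 bp), b (898 bp) or c (735 bp), ALDH_Low_Erl a (743 bp) or b (842 bp), or ALDH_Low_DMSO a (638 bp). In DTP against PC9 the ABCC3 difference of 555 bp turned to -496 bp with the score filter and with equal-length lists, and ran from -106 bp (without PC9 c) to 1040 bp with single libraries left out. The other DTP differences ran from 1390 to 1780 bp at ABCB1, -532 to -183 bp at ABCG2, 642 to 1370 bp at ABCC1 (254 bp with the score filter and 59.3 bp with equal-length lists) and -705 to -110 bp at ABCC2. For single regions the 0 adjusted calls became 1 when only regions able to reach 0.05 were tested, a choice added after seeing the data that tests fewer regions. Read depth is unknown, so absence of a call could not be given a limit.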

Other observations

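Several members with no call in the comparisons above differed in where they were called, and were picked after their values were seen, with no test of sorted against unsorted libraries, which the design does not compare. The ABCC2 region at 2.83 to 4.17 kb (chr10:101544835-101546174) was held by 3 of 3 DTP and 3 of 3 PC9 libraries and by 1 of the 12 sorted libraries, an ALDH_High_Erl one. The ABCC1 region at -29.37 to -28.57 kb (chr16:16013633-16014430) was held by 3 DTP and 3 PC9 libraries, 0 ALDH_High_Erl and 2 ALDH_High_DMSO libraries, and 0 ALDH_Low_Erl and 1 ALDH_Low_DMSO library. The ABCC1 region at 78.54 to 80.01 kb (chr16:16121542-16123012) was held by 0 DTP and 0 PC9 libraries, 3 ALDH_High_Erl and 1 ALDH_High_DMSO library, and 2 ALDH_Low_Erl and 0 ALDH_Low_DMSO libraries. Over the sorted libraries its exact permutation p for treatment was 0.08, the smallest its margins allow, and 0.169 after adjustment over all regions tested.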
